A study of Mus musculus with 4 samples.

Results

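Resting alveolar macrophages of tumour-bearing mouse lung were selected from single-cell RNA counts as cells with at least 8 unique molecular identifiers (UMIs) summed over Ear1, Ear2, Marco, Fabp1 and Atp6v0d2. Members had no UMI of Epcam, Cd3e or Cd79a, which mark epithelial, T and B cells, and fewer than 2 UMIs of the mitosis genes Mki67 and Top2a together. Only cells with 1000 UMIs and 500 genes or more, and no more than 20% of UMIs from mitochondrial genes, were considered. The rule found 582 members among 3508 cells kept in the KPF1F2 library and 696 among 3797 in the KP library, both made before leukocytes were removed. That was 16.6% (95% Clopper-Pearson interval 15.4 to 17.9) in KPF1F2 and 18.3% (17.1 to 19.6) in KP, intervals that overlap. After magnetic removal of CD45-positive and CD31-positive cells, 2 of 2566 KPF1F2 cells and 0 of 3622 KP cells met the rule. Taking a count of 0 as allowing up to 3 cells, the KP share there could be up to 0.0828%, and those 2 libraries were not used further.

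The tumours were lung adenocarcinomas of mixed 129/B6 mice. Every group carried, among its engineered alleles, p53frt and Rosa-FSF-CreERT2, so Flp recombinase removes p53 and switches on a tamoxifen-dependent Cre. KPF1F2 mice were labelled Foxa1flox and Foxa2flox, and KP mice Foxa1flox/+ and Foxa2flox/+, so the KP group carries floxed alleles too. Flp came from the adenovirus Ad5-mSPC-FlpO, whose surfactant protein C promoter limits recombination largely to alveolar type 2 cells, and macrophages therefore stand for the cells around the tumour. All mice received 4 daily injections of tamoxifen at 120 mg/kg from week 10 and tumours were collected at week 12 after initiation. Neither the age of the mice nor the number per library is given in the sources used here. Each group is 1 library, so no difference below has a replicate check, no test was made and intervals cover counting error only. The title of the KPF1F2 library begins with 18385 and that of the KP library with 18836, so the genotype, that number and the mice cannot be told apart.

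Alveolar macrophages are the resident phagocytes of the air spaces. They depend on granulocyte-macrophage colony-stimulating factor (GM-CSF), transforming growth factor beta and the nuclear receptor PPARg, clear surfactant lipid, and present little antigen at rest. In lung tumours they lie beside macrophages that come from blood monocytes and express complement C1q and MHC class II.

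Members were deep cells, with medians of 21337 UMIs and 4297.5 genes in KPF1F2 and 19972 UMIs and 4133.5 genes in KP. Their summed UMIs were 13479141 in KPF1F2 and 13941687 in KP, and the median mitochondrial share was 2.74% in KPF1F2 and 3.20% in KP. The 10th percentile of member depth was 11093 UMIs in KPF1F2 and 3677 UMIs in KP, so KP held more shallow members. The libraries shared 11 cell barcodes, none of them among members. Several features were shifted in every cell population between the libraries: the ribosomal RNA-overlapping gene model Gm42418 had 4624 CPM in KPF1F2 and 27311 CPM in KP, and the KP library carried Xist (0.223 CPM in KPF1F2 against 734 CPM in KP) while the KPF1F2 library carried Y-linked Ddx3y (75.1 CPM in KPF1F2, 0 in KP), so the libraries differed in sex as well as genotype, and the 2 cannot be told apart. CPM is the count of a gene summed over the members of a library, per 1000000 UMIs of that sum.

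The rule chose cells on the 5 gate genes, which are given as a description. The summed gate count had a median of 47.5 UMIs per cell in KPF1F2 and 65 in KP. Ear2, an eosinophil-associated ribonuclease, gave 45.9% of gate UMIs in KPF1F2 and 52.5% in KP. Atp6v0d2, a subunit of the vacuolar proton pump, gave 34.0% in KPF1F2 and 29.8% in KP. The levels of all 5 were lower in KPF1F2, with Ear2 at 1258 CPM in KPF1F2 and 2028 CPM in KP (log2 fold -0.69), Ear1 at 193 CPM in KPF1F2 and 266 CPM in KP, the scavenger receptor Marco at 164 CPM in KPF1F2 and 195 CPM in KP, the fatty acid binder Fabp1 at 192 CPM in KPF1F2 and 222 CPM in KP and Atp6v0d2 at 932 CPM in KPF1F2 and 1150.4 CPM in KP. All log2 folds divide KPF1F2 by KP after adding 1 CPM to both. Just outside the threshold, at 6 to 7 gate UMIs, were 15 cells in KPF1F2 and 48 in KP. Just inside, at 8 to 9, were 22 cells in KPF1F2 and 42 in KP.

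**Figure D1:**
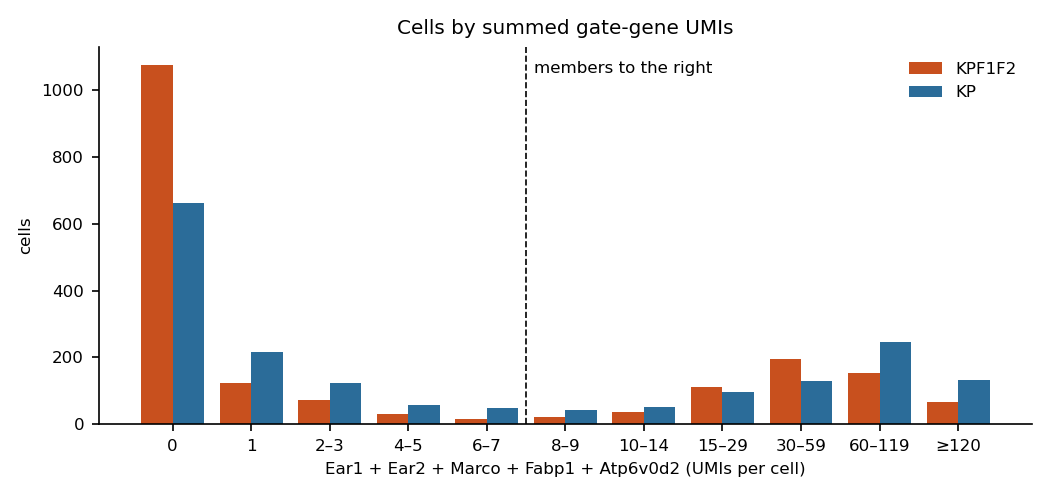
Number of cells (vertical axis) by UMIs summed over the 5 gate genes (horizontal axis, unequal classes) in the KPF1F2 and KP pre-depletion libraries, among cells kept without Epcam, Cd3e or Cd79a and with fewer than 2 Mki67 and Top2a UMIs. Both libraries have many cells at 0 and many above the threshold of 8, with 239 KPF1F2 and 443 KP cells at 1 to 7 between them, and no gap at the threshold in KP.

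The label was checked with genes outside the rule. Set against C1q-positive macrophages of the same library (213 cells in KPF1F2, 137 in KP), 21 of 24 other alveolar macrophage genes measured were at least 2-fold higher in members in both libraries. The carbonic anhydrase Car4 stood at 1219.7 CPM in members against 7.03 CPM in C1q-positive macrophages of KPF1F2, and at 907 against 3.95 CPM in KP. Chil3, a secreted chitinase-like protein, stood at 34558 against 211 CPM in KPF1F2 and at 21535 against 315 CPM in KP. The endocytic receptor Ly75, Wfdc21 and the fatty acid binder Fabp4 were also at least 5 log2 units higher in members in both libraries. Lower in members by at least 5 log2 units in both were the fractalkine receptor Cx3cr1, the microglial marker Tmem119, the chemokines Ccl12, Ccl8 and Cxcl13, and the lipoprotein Apoe. All 8 MHC class II genes measured there were at least 2-fold lower in members in both libraries, with a median log2 difference of -2.17 in KPF1F2 and -3.08 in KP. All other cells kept include cycling alveolar macrophages and gated cells with a UMI of Epcam, Cd3e or Cd79a. They held Chil3 at 6462 CPM in KPF1F2 and 3176 CPM in KP. Against them, Fabp4, Gpnmb, Chil3, Olr1, Ch25h, Slc7a2, Mgll and Lpl led in both libraries. The alveolar macrophage label thus held against its markers for the bulk of the members.

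The lower end of the gate looked different. Members with 8 to 14 gate UMIs (57 cells in KPF1F2, 94 in KP) had C1qa at 1294 CPM in KPF1F2 and 1582 CPM in KP, whereas members with 60 or more (219 cells in KPF1F2, 377 in KP) had 158 CPM in KPF1F2 and 10.0 CPM in KP. Car4 ran the other way, at 275 CPM in KPF1F2 and 344 CPM in KP at the low end and 1366 CPM in KPF1F2 and 976 CPM in KP at the high end. Ccr2, the monocyte chemokine receptor, stood at 194 CPM in KPF1F2 and 216 CPM in KP at the low end, and at 9.66 CPM in KPF1F2 and 2.98 CPM in KP at the high end. Members with at least 8 UMIs of C1qa, C1qb and C1qc together numbered 108 of 582 in KPF1F2 (18.6%, 15.5 to 21.96) and 51 of 696 in KP (7.33%, 5.50 to 9.52). Of these, 19 KPF1F2 and 19 KP cells had 8 to 14 gate UMIs, 66 KPF1F2 and 21 KP cells 15 to 59, and 23 KPF1F2 and 11 KP cells 60 or more. Cells with C1q genes were thus more frequent at the low end but lay across the gate, most of them above 14 gate UMIs. The cutoff of 8 C1q UMIs is a count not scaled to depth. Median depth at 8 to 14 gate UMIs was 10659 UMIs in KPF1F2 and 3938 in KP. At 60 or more it was 26634 UMIs in KPF1F2 and 24871 in KP. The shares of members with 8 C1q UMIs, and the sets of members under 8, are therefore not matched for depth. Summed over 12 markers of non-alveolar macrophages, members held 1260 CPM in KPF1F2 and 638 CPM in KP, with none of the markers at 0, and 6 of the 12 were measured at a mean of 20 CPM, 3 of them at least 2-fold higher and all 6 above 0 in KPF1F2, with a median log2 fold of 1.00. The defining markers Cx3cr1, Tmem119 and Lyve1 were at or below 4.15 CPM in both libraries. The MHC class II, cholesterol, chemokine, type 2, lipid-associated and complement lists are given below also for members under 8 C1q UMIs or with 60 or more gate UMIs.

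**Figure D2:**
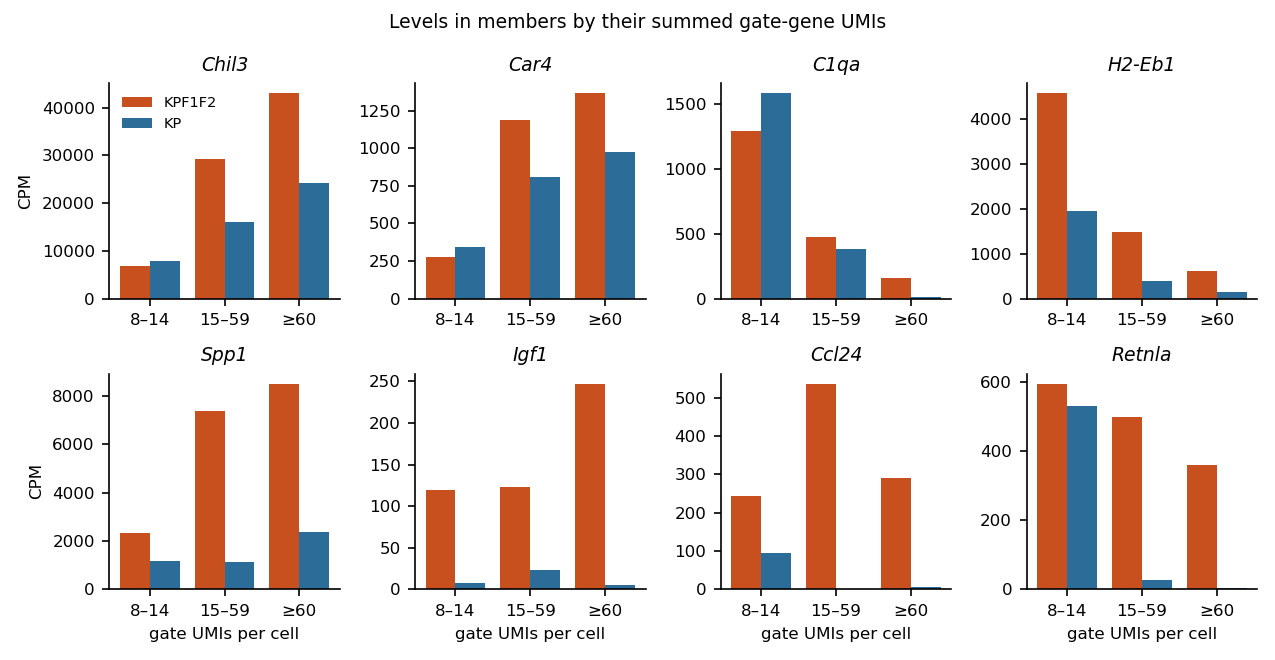
CPM (vertical axes, from 0) of 8 genes in members grouped by gate UMIs per cell (horizontal axis: 8 to 14, 15 to 59, 60 or more), KPF1F2 left of KP; bars are sums over cells of 1 library and carry no replicate error. C1qa and H2-Eb1 are highest at the low end of the gate in both libraries, whereas Igf1 is highest in KPF1F2 cells with 60 or more gate UMIs, at 247 CPM against 4.48 CPM in KP.

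Of 5328 genes with a mean of at least 20 CPM, 116 (2.18%) were at least 2-fold higher in KPF1F2 and 40 (0.751%) at least 2-fold lower, and the median log2 fold was -0.0042. Any list below is read against these shares. In the same comparison, cycling alveolar macrophages (70 cells in KPF1F2, 108 in KP, chosen by the same gate with 2 or more Mki67 and Top2a UMIs) had 3.26% of genes higher and 1.25% lower. C1q-positive macrophages had 2.64% higher and 2.96% lower, and all other cells kept 3.38% higher and 3.13% lower. Sums over fewer cells hold more counting error, so the shares are not matched for depth. Of the 116 higher genes, 65 had a higher CPM in the other cells of the KPF1F2 library than in the members, and 4 were left out by name (gene models, ribosomal, mitochondrial genes, Xist, Tsix and Y-linked genes). The remaining 47, and 20 of the 40 lower genes, were ranked by fold, and the first 15 each way are described, all but 1 of each by name.

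Growth factor and chemokine genes led the higher genes. Igf1 (ENSMUSG00000020053, chromosome 10, 87858265 to 87937042), insulin-like growth factor 1, had 182 CPM in KPF1F2 and 8.75 CPM in KP, 20.8-fold (95% counting interval 17.3 to 25.2) higher in KPF1F2 (log2 fold 4.23). Coordinates are those of GRCm38. With each cell thinned to 3000 UMIs, an Igf1 UMI was found in 24.3% of KPF1F2 cells and 1.09% of KP cells, and without thinning in 53.1% of KPF1F2 cells and 4.598% of KP cells. T cells, which serve as the level of free RNA, gave thinned shares of 0.241% in KPF1F2 and 0% in KP, with medians of 4267.5 UMIs in KPF1F2 T cells and 5349.5 in KP T cells before thinning. Igf1 was thus spread over many KPF1F2 members and found in few KP members.

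Ccl24, a chemokine for eosinophils, had 402 CPM in KPF1F2 and 7.96 CPM in KP (log2 fold 5.49), and Rbp4, the carrier of retinol, had 479 CPM in KPF1F2 and 31.1 CPM in KP (log2 fold 3.90). Both came from few cells. At least 50% of the Ccl24 UMIs lay in 6 of the 582 KPF1F2 cells and 1 of the 696 KP cells, and 50% of those of Rbp4 in 5 of the 582 KPF1F2 cells and 4 of the 696 KP cells. The highest KPF1F2 cell for each gene held 1065 UMIs of Ccl24 and 933 UMIs of Rbp4. Rbp4 was detected without thinning in 83 KPF1F2 cells and 88 KP cells. After thinning a Rbp4 UMI was found in 7.504% of KPF1F2 cells and 4.68% of KP cells, with T cell shares of 1.69% in KPF1F2 and 1.79% in KP.

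Spp1, the secreted matrix protein osteopontin, had the most UMIs among the ranked genes, with 7620.4 CPM in KPF1F2 and 2022 CPM in KP, 3.77-fold (95% counting interval 3.72 to 3.82) higher in KPF1F2. An Spp1 UMI was found in 78.2% of KPF1F2 cells and 66.9% of KP cells after thinning, against T cell shares of 11.8% in KPF1F2 and 12.7% in KP, and without thinning in 94.8% of KPF1F2 cells and 88.2% of KP cells. Its level was uneven in both libraries: 50% of the Spp1 UMIs lay in 19 of the 582 KPF1F2 cells and 17 of the 696 KP cells. In C1q-positive macrophages its log2 fold was 1.92, and in all other cells 0.39.

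Other higher genes fall into groups by function. Enzymes that cut matrix were Mmp8, a collagenase (97.0 CPM in KPF1F2 and 19.7 CPM in KP), and Mmp19 (306 CPM in KPF1F2 and 78.8 CPM in KP). Pdpn, a membrane mucin that binds the platelet receptor CLEC-2, had 121 CPM in KPF1F2 and 21.3 CPM in KP. The interleukin 7 receptor Il7r, also a T cell gene, had 85.5 CPM in KPF1F2 and 22.7 CPM in KP. Secreted proteins were Inhba, the activin A subunit (89.0 CPM in KPF1F2 and 31.2 CPM in KP), the ribonuclease Rnase2a (336 CPM in KPF1F2 and 80.3 CPM in KP) and Pltp, which transfers phospholipid between lipoproteins (173 CPM in KPF1F2 and 53.7 CPM in KP). Also ranked were the GABA receptor-associated Lhfpl4 (log2 fold 3.41), the Ras exchange factor Rasgef1b (1.76) and the ubiquitin ligase Rnf19b (1.58). For Rnase2a the log2 fold was 0.81 among members under 8 C1q UMIs, below 2-fold, against 2.05 among all. The other 14 stayed at least 2-fold higher in those members.

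Among the 15 lower genes, 2 encode endosomal sensors of single-stranded RNA, Tlr7 (31.5 CPM in KPF1F2 and 69.1 CPM in KP) and Tlr8 (10.5 CPM in KPF1F2 and 31.6 CPM in KP). Both lie on chromosome X, the libraries differ in sex, and the 2 cannot be told apart. With thinned cells the log2 fold was -0.88 for Tlr7, below 2-fold, and -1.62 for Tlr8. Gdpd3, a lysophospholipase D, had the largest fold, at 22.3 CPM in KPF1F2 and 142 CPM in KP (log2 fold -2.61). Lars2, the mitochondrial leucyl-tRNA synthetase, was lower to a like extent in every population compared. Its log2 folds were -2.60 in members and -2.60, -2.46 and -2.72 in cycling alveolar macrophages, C1q-positive macrophages and all other cells. The ribosomal RNA-overlapping transcript AY036118 was also lower in each of these populations, and a link to Lars2 was not tested. Rgs1, which dampens chemokine receptor signalling, had 217 CPM in KPF1F2 and 618 CPM in KP. Fstl1, a secreted follistatin-like protein, had 34.3 CPM in KPF1F2 and 116 CPM in KP, and the chemokine Cxcl14 had 36.9 CPM in KPF1F2 and 102 CPM in KP. Signalling proteins were the PI3 kinase adaptor Pik3ap1 (-1.24 on the log2 scale) and the glucocorticoid-induced co-chaperone Fkbp5 (-1.14). Klra9, Capn15, Spag11b, the scavenger receptor Colec12 and the beta-1 adrenergic receptor Adrb1 were also ranked, between -1.71 and -1.11. Of those named, Adrb1 was below 2-fold among members under 8 C1q UMIs (-0.95), with equal weight per cell (-0.65), with thinned cells (-0.64) and with 5 CPM added (-0.92), and Colec12, Pik3ap1 and Spag11b among members with 60 or more gate UMIs (-0.94 to -0.98).

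**Figure D3:**
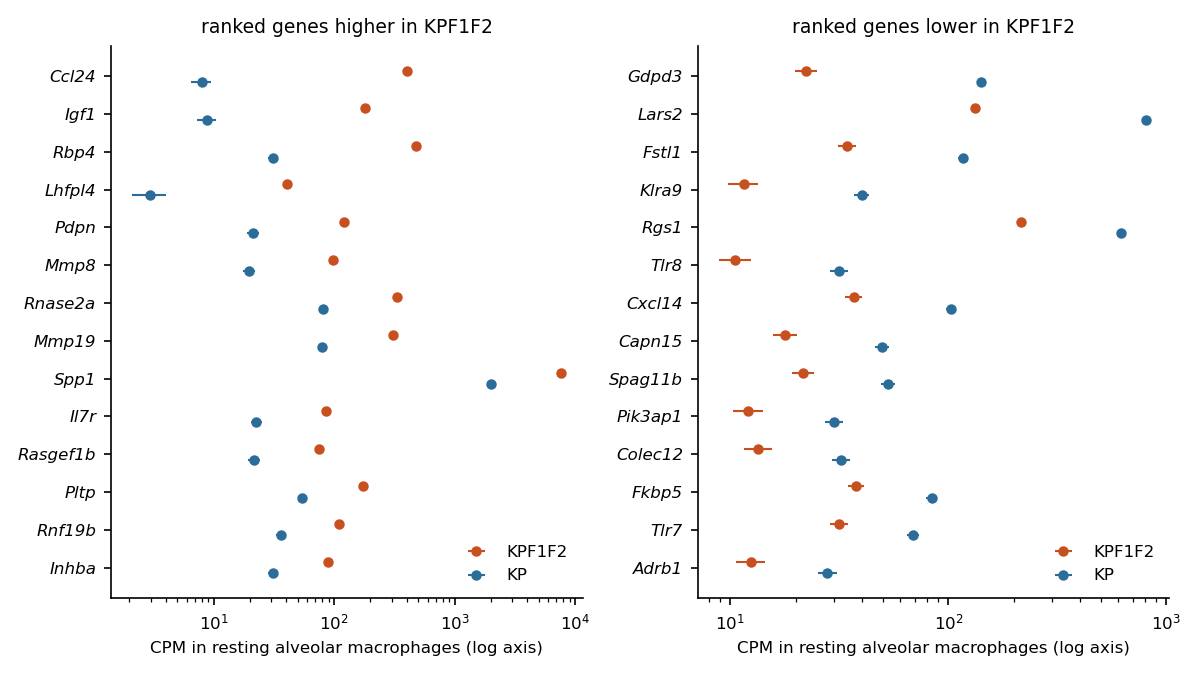
CPM on a log axis for 14 of the ranked genes higher (left) and 14 of those lower (right) in KPF1F2, with 95% exact Poisson intervals that cover counting error only; 1 point is 1 library. Spp1 has the most UMIs of the higher genes in both libraries, and Ccl24 the widest gap, at 402 CPM in KPF1F2 and 7.96 CPM in KP.

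The same 30 genes were read in other cells of the 2 libraries. Cycling alveolar macrophages, which pass the same gate, had 12 of the 15 higher genes at least 2-fold higher and 14 of the 15 lower genes at least 2-fold lower in KPF1F2. C1q-positive macrophages had 7 of the higher and 8 of the lower genes past 2-fold in the same direction, and all other cells 8 and 5. Inhba went the other way in C1q-positive macrophages (log2 fold -1.55, against 1.48 in members). Rbp4 did so in all other cells, a mixture of cell types (-2.71, against 3.90 in members). The difference between populations was not tested, as each is a sum over cells of the same 2 libraries. All populations of a genotype come from 1 library, so their folds are not independent of each other.

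**Figure D4:**
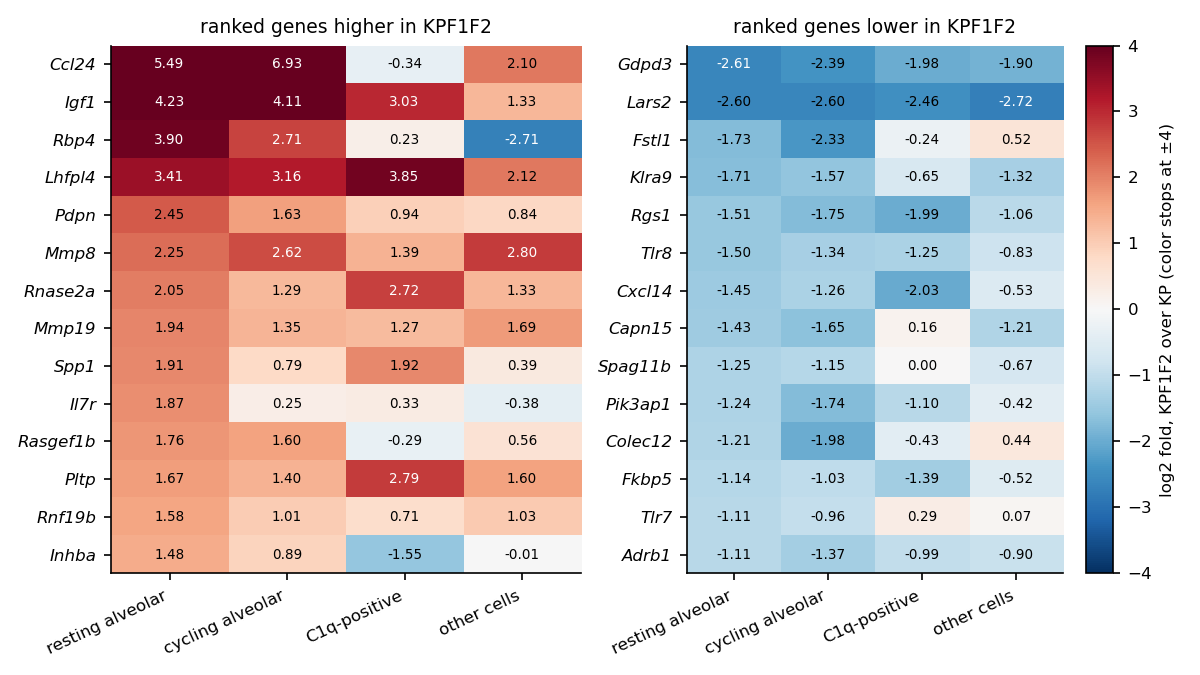
Log2 fold of KPF1F2 over KP (colour and printed value) for 28 of the 30 ranked genes in rows, in resting alveolar macrophages, cycling alveolar macrophages, C1q-positive macrophages and all other cells kept in columns. Lars2 and Gdpd3 are lower in all 4 columns, Inhba and Rbp4 pass 2-fold in opposite directions in different columns, and Il7r is at least 2-fold higher in the first column only.

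MHC class II genes, which present peptides to helper T cells, were higher together. Of 10 listed, 6 were measured, 5 of them at least 2-fold higher and none lower in KPF1F2, with a median log2 fold of 1.21. The beta chain gene H2-Eb1 (ENSMUSG00000060586, chromosome 17, 34305867 to 34316674) had 1252 CPM in KPF1F2 and 293 CPM in KP, 4.27-fold (95% counting interval 4.12 to 4.42) higher in KPF1F2. H2-Aa and H2-Ab1, the chains of I-A, had 2156 CPM in KPF1F2 and 803 CPM in KP and 1687 CPM in KPF1F2 and 713 CPM in KP. Cd74, the invariant chain, had 6413 CPM in KPF1F2 and 2884 CPM in KP, and H2-DMb1, which helps load peptide, had 459 CPM in KPF1F2 and 203 CPM in KP. H2-DMa, its partner chain, had 434 CPM in KPF1F2 and 372 CPM in KP (log2 fold 0.22). Of the 4 below the CPM minimum, H2-DMb2 and Ciita, the class II transactivator, had log2 folds of 0.36 and 0.80. An H2-Eb1 UMI was found in 65.6% of KPF1F2 cells and 24.8% of KP cells after thinning and in 89.2% of KPF1F2 cells and 44.7% of KP cells without it, with thinned T cell shares of 10.8% in KPF1F2 and 7.36% in KP.

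The class II difference was present across the gate. Among members with 60 or more gate UMIs, H2-Eb1 stood at 620.5 CPM in KPF1F2 and 146 CPM in KP, and 4 of 6 class II genes were at least 2-fold higher (median 1.07). Among members under 8 C1q UMIs, 5 of 6 were (median 1.33). The list median was 2.07 in cycling alveolar macrophages, 0.46 in C1q-positive macrophages and 0.97 in all other cells. MHC class I and peptide-loading genes differed little, with 0 of 14 measured past 2-fold either way and a median of -0.22. Of 8 interferon response genes measured, 0 passed 2-fold either way (median 0.02).

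The class II genes were higher together, so their promoters are shown, as read from RefSeq on GRCm38.p6. Windows ran from 250 bases before to 50 after the gene start, and both strands were searched for the Y box TGATTGG, the NF-Y site of class II promoters. The motif was chosen with the values known. The promoter table held 4 of the 6 measured class II genes, and 3 of the 4 contained the motif, as did 9.0% of the 27025 gene symbols in the table. Capitals mark the motif in the following lines, written 5′ to 3′ in the direction of the gene.
H2-Eb1, chr17:34305751-34305837, plus strand: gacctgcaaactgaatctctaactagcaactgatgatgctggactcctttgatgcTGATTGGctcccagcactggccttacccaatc
H2-Aa, chr17:34287842-34287928, minus strand: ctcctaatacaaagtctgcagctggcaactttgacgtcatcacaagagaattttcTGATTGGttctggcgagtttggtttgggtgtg
H2-DMb1, chr17:34153073-34153159, plus strand: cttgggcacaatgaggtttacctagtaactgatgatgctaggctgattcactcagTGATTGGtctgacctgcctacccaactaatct
The motif began 61, 50 and 63 bases before the gene start in these 3 promoters, in the order given. H2-DMa had no such letters in its window, which says nothing of NF-Y itself. A link between the motif and the size of a gene's fold was not tested.

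Cholesterol synthesis and uptake genes were also higher in KPF1F2. Of 18 listed genes, 14 were measured, 8 of them at least 2-fold higher and none lower in KPF1F2, all 14 above 0, with a median of 1.01. Fdft1, squalene synthase, had 37.8 CPM in KPF1F2 and 14.6 CPM in KP (KPF1F2 over KP ratio 2.58 (95% counting interval 2.19 to 3.05)). The isopentenyl isomerase Idi1 had 84.9 CPM in KPF1F2 and 37.7 CPM in KP. Srebf2, which encodes the transcription factor of the pathway, had 41.3 CPM in KPF1F2 and 26.1 CPM in KP (log2 fold 0.64). The 4 genes under the minimum were also above 0, with log2 folds of 0.26 for Lss, 0.55 for Nsdhl, 0.90 for Sc5d and 1.13 for Stard4. For Fdft1, 50% of the UMIs lay in 53 of the 582 KPF1F2 cells and 42 of the 696 KP cells. With 5 CPM added instead of 1, 5 of 14 passed 2-fold (median 0.95). With 60 or more gate UMIs, 3 of 14 did (median 0.76), and with under 8 C1q UMIs, 10 of 14 did (median 1.12). The median of the same genes was 0.81 in cycling alveolar macrophages, -0.20 in C1q-positive macrophages and 0.52 in all other cells.

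A sterol regulatory element, searched as TCACNCCAC on both strands of the same promoter windows, was present in 1 of the 8 measured genes that the table held and in 1.44% of its gene symbols. The match was in Hmgcs1, which encodes an early enzyme of the pathway (102 CPM in KPF1F2 against 53.5 CPM in KP, log2 fold 0.92), and began 137 bases before the gene start. Capitals mark it.
Hmgcs1, chr13:119690159-119690247, plus strand: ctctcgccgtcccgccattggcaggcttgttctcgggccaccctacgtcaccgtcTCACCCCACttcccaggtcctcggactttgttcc

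Chemokine genes were mixed. Of 14 measured, 4 were at least 2-fold higher and 1, Cxcl14, at least 2-fold lower, with a median of 0.73. The monocyte attractants Ccl2 and Ccl7 had 93.8 CPM in KPF1F2 and 22.2 CPM in KP and 45.8 CPM in KPF1F2 and 2.15 CPM in KP, and 50% of the Ccl7 UMIs lay in 2 of the 582 KPF1F2 cells and 3 of the 696 KP cells. Ccl4, an attractant of monocytes and NK cells, had 235 CPM in KPF1F2 and 76.0 CPM in KP. Ccl6, the chemokine with the most UMIs in members, was near equal at 12389 CPM in KPF1F2 and 10847 CPM in KP. Among members under 8 C1q UMIs, 7 of 14 were at least 2-fold higher (median 0.98). In C1q-positive macrophages the median was -0.23.

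Of 10 growth factor genes measured, 5 were at least 2-fold higher and none lower (median 0.86). Beside Igf1 and Inhba these were the EGF receptor ligands Hbegf (50.003 CPM in KPF1F2 and 5.59 CPM in KP) and Areg (74.4 CPM in KPF1F2 and 35.4 CPM in KP) and the interleukin 6 family cytokine Osm (287 CPM in KPF1F2 and 123 CPM in KP). Of these 5, Osm was spread most widely, with 50% of its UMIs in 85 of the 582 KPF1F2 cells and 56 of the 696 KP cells. Pdgfc had 19.9 CPM in KPF1F2 and 23.9 CPM in KP (log2 fold -0.25).

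Type 2 and chitinase-like genes had 4 of 10 measured at least 2-fold higher and none lower (median 0.79). The count was 2 higher and none lower with equal weight per cell, 2 higher and 1 lower with thinned cells (median 0.60 in both), and 3 of 9 (median 0.45) among members under 8 C1q UMIs. Retnla, a secreted resistin-like protein, had 438 CPM in KPF1F2 and 34.9 CPM in KP (log2 fold 3.61), but 50% of its UMIs lay in 4 of the 582 KPF1F2 cells and 1 of the 696 KP cells. In members with 60 or more gate UMIs it stood at 360.2 CPM in KPF1F2 and 3.98 CPM in KP. Mgl2, a galactose lectin, had 76.1 CPM in KPF1F2 and 32.5 CPM in KP, and the matrix protein Fn1 had 1051 CPM in KPF1F2 and 523 CPM in KP. Chil3 had the most UMIs of the list, at 34558 CPM in KPF1F2 and 21535 CPM in KP (log2 fold 0.68), with 50% of its UMIs in 80 of the 582 KPF1F2 cells and 101 of the 696 KP cells, and was higher in KPF1F2 by less than 2-fold.

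Lipid-associated and tissue-remodelling genes had 7 of 22 measured at least 2-fold higher and none lower (median 0.48), against 6 of 21 (median 0.35) among members under 8 C1q UMIs and 5 of 21 (median 0.26) with 60 or more gate UMIs. Timp1, an inhibitor of matrix proteases, had 82.7 CPM in KPF1F2 and 12.8 CPM in KP, and the calcium binder S100a6 had 593 CPM in KPF1F2 and 194 CPM in KP. Timp1 lies on chromosome X, so for it sex and genotype cannot be told apart. Without chromosomes X and Y, 6 of 21 genes of the list were at least 2-fold higher (median 0.35). The usual lipid-associated genes differed little: Gpnmb had 687 CPM in KPF1F2 and 627 CPM in KP, Lgals3 3765 CPM in KPF1F2 and 3607 CPM in KP, Fabp5 2177 CPM in KPF1F2 and 2177 CPM in KP and Trem2 364 CPM in KPF1F2 and 331 CPM in KP. Mmp12, macrophage elastase, had 1612 CPM in KPF1F2 and 860.4 CPM in KP. The 7 past 2-fold were Spp1, Mmp8, Mmp19, Timp1, Fn1, S100a4 and S100a6.

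Interleukin 1, TNF and NF-kB genes had 4 of 19 measured at least 2-fold higher and none lower (median 0.56). The prostaglandin synthase Ptgs2 had 62.4 CPM in KPF1F2 and 7.03 CPM in KP, interleukin 1 beta Il1b 827 CPM in KPF1F2 and 308 CPM in KP, and the IkB family genes Nfkbia 439 CPM in KPF1F2 and 201 CPM in KP and Nfkbiz 82.6 CPM in KPF1F2 and 30.8 CPM in KP. Tnf itself had 65.1 CPM in KPF1F2 and 35.9 CPM in KP (log2 fold 0.84). The survival genes Bcl2a1d and Bcl2a1a, near-identical copies whose reads may be split between them, had log2 folds of -0.92 and -0.47. In C1q-positive macrophages the list median was -0.11.

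Immediate-early and heat shock genes had 8 of 29 measured at least 2-fold higher and none lower (median 0.52). The inducible chaperones Hspa1a (112 CPM in KPF1F2 and 7.75 CPM in KP) and Hspa1b (96.5 CPM in KPF1F2 and 3.37 CPM in KP), also near-identical copies, led the list, and Fosl2, Egr1, Egr2, Ier3, Hsph1 and Dnajb1 were the other 6. The Hspa1 pair was higher in every population, Hspa1b with log2 folds of 3.88, 4.85 and 2.13 in cycling alveolar macrophages, C1q-positive macrophages and all other cells. Of the 29 genes, 25 were above 0 and 4 below. Fos and Fosb had log2 folds of -0.27 and -0.09, and Jun -0.71. The part that handling of the tissue has in these genes was not tested.

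**Figure D5:**
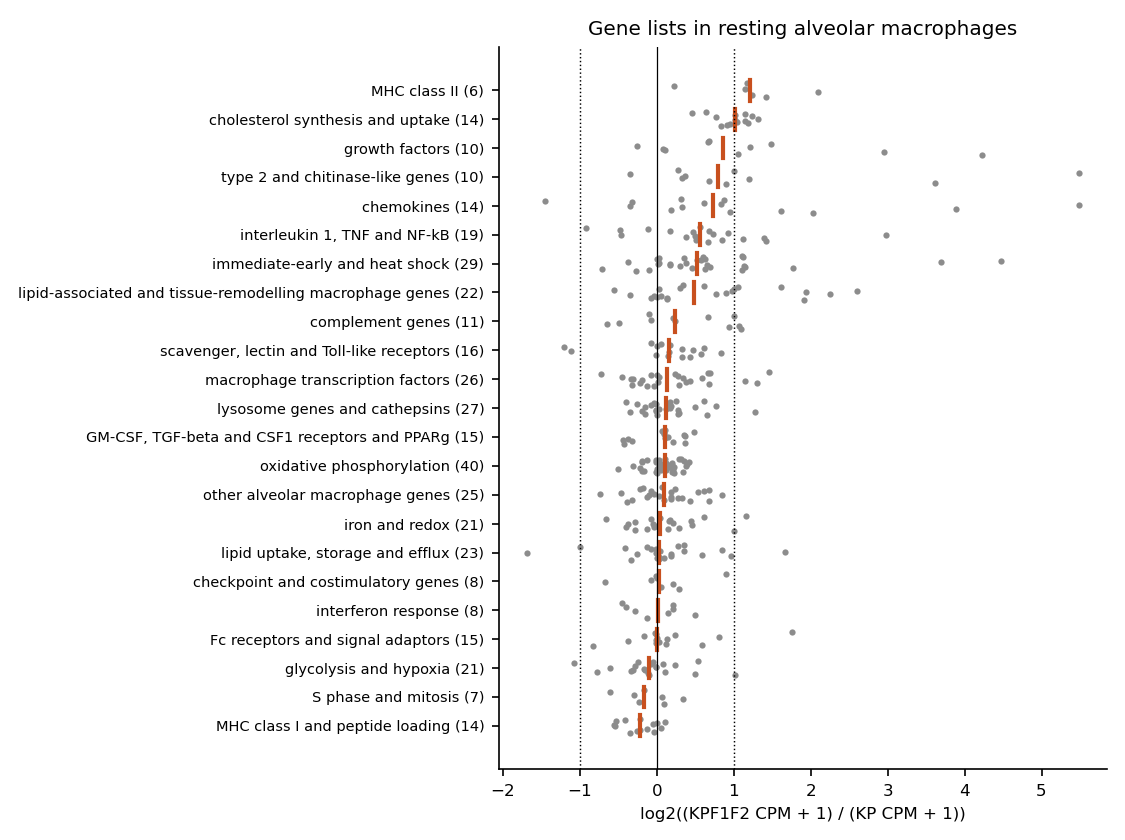
Log2 fold of KPF1F2 over KP (horizontal axis) for each measured gene (grey points) of each list (rows, with the number measured), ordered by the list median (orange bar); dotted lines mark 2-fold. MHC class II and cholesterol synthesis have medians of 1.21 and 1.01, whereas other alveolar macrophage genes have a median of 0.09 with no gene past 2-fold.

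Genes that mark alveolar macrophages differed little between the libraries. Of 25 other alveolar macrophage genes measured, 0 were 2-fold higher or lower (median 0.09, range -0.74 to 0.85), and 1, Cidec, a lipid droplet protein, was 2-fold higher with thinned cells, with equal weight per cell or among members under 8 C1q UMIs. The sialic acid lectin Siglecf had 81.5 CPM in KPF1F2 and 107 CPM in KP, the nuclear receptor Pparg 95.3 CPM in KPF1F2 and 119.6 CPM in KP, the mannose receptor Mrc1 1030.3 CPM in KPF1F2 and 820.4 CPM in KP, and the integrin Itgax 551 CPM in KPF1F2 and 453 CPM in KP. Plet1 had 1341 CPM in KPF1F2 and 1463 CPM in KP and Car4 1219.7 CPM in KPF1F2 and 907 CPM in KP. Receptors that maintain the cells also had 0 of 15 past 2-fold (median 0.10): the GM-CSF receptor chains Csf2ra and Csf2rb had log2 folds of -0.42 and 0.37, and the TGF-beta receptors Tgfbr1 and Tgfbr2 -0.44 and -0.38.

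Metabolic and degradative lists were near the median of all genes. Oxidative phosphorylation had 0 of 40 genes past 2-fold (median 0.10) and glycolysis and hypoxia 1 of 21 higher, Hk2, and 1 lower, Bnip3 (median -0.09). Lipid uptake, storage and efflux had 1 of 23 higher, Pltp, and 1 lower, Apoe (median 0.03). Apoe had 273 CPM in KPF1F2 and 884 CPM in KP, with 50% of its UMIs in 6 of the 582 KPF1F2 cells and 4 of the 696 KP cells, and its log2 fold among members under 8 C1q UMIs was -0.11. Lysosome genes had 1 of 27 higher, Ctsl (median 0.12), which had 1601 CPM in KPF1F2 and 661 CPM in KP with 50% of its UMIs in 22 of the 582 KPF1F2 cells and 98 of the 696 KP cells, and a log2 fold of 0.52 among members under 8 C1q UMIs. Iron and redox genes had 2 of 21 higher, the metallothionein Mt2 and heme oxygenase Hmox1 (median 0.04). Receptors of the scavenger, lectin and Toll-like list had 2 of 16 lower, Tlr7 and Colec12, and none higher (median 0.16), but 0 of 15 lower with thinned cells and 1 of 15 without chromosomes X and Y. Fc receptors and adaptors had 1 of 15 higher, Cd300ld, with 33.8 CPM in KPF1F2 and 9.32 CPM in KP (median 0.00). Under 8 C1q UMIs or with 60 or more gate UMIs, each of these lists had 0 to 3 genes past 2-fold either way.

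Transcription factors had 3 of 26 measured at least 2-fold higher and none lower (median 0.13), among them Nr4a1 with 160.1 CPM in KPF1F2 and 57.8 CPM in KP and Egr2 with 125 CPM in KPF1F2 and 56.2 CPM in KP. Complement genes had 2 of 11 higher, C1qa and C1qc (median 0.24), and 0 of 11 with thinned cells, 0 of 11 with a gate of 5 UMIs and 0 of 5 (median -0.20) among members under 8 C1q UMIs. C1qa and C1qc are also markers of non-alveolar macrophages, and C1qa and C1qc had log2 folds of 0.84 and 0.68 among members under 8 C1q UMIs. That cut was made on C1qa, C1qb and C1qc, which are on the complement list. The complement count and these folds under the cut are therefore not independent of it and serve as no check. Checkpoint and costimulatory genes had 0 of 8 past 2-fold (median 0.03), with Cd274, which encodes PD-L1, at 126 CPM in KPF1F2 and 104 CPM in KP. S phase and mitosis genes had 0 of 7 past 2-fold (median -0.16), after the rule had removed cycling cells. Cycling cells made up 10.7% (8.47 to 13.4) of all gated alveolar macrophages in KPF1F2 and 13.4% (11.2 to 16.0) in KP, intervals that overlap.

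Markers of other cells were also found in members. The neutrophil list summed to 188 CPM in KPF1F2 and 88.5 CPM in KP, with 0 of 10 markers at 0 in KPF1F2 and 2 in KP, and its only measured member, S100a8, had 141 CPM in KPF1F2 and 51.0 CPM in KP. The T and NK list summed to 229 CPM in KPF1F2 and 136 CPM in KP, mostly Cd2 and Il7r, and none of the 9 present in the files was at 0. The monocyte list summed to 2070.4 CPM in KPF1F2 and 1706 CPM in KP, of which Fn1 and Msrb1 made up most, and the dendritic list to 167 CPM in KPF1F2 and 108 CPM in KP. At least 2-fold higher were 1 of 3 measured in each of these lists, Fn1 and Mgl2. Endothelial, fibroblast, B and plasma, erythroid, and eosinophil and mast lists each summed to at most 45.7 CPM in either library. The part of such cells or of their free RNA in the differences was not tested.

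The alveolar type 2 and tumour epithelium list summed to 765 CPM in KPF1F2 and 992 CPM in KP, with none of its 16 markers at 0. Of 8 measured, 2 were at least 2-fold higher, Scgb1a1 and Cdh1, and 2 at least 2-fold lower, Sftpb and Sftpc. Sftpc had 265 CPM in KPF1F2 and 539.7 CPM in KP, and after thinning a UMI of it was found in 14.5% of KPF1F2 cells and 64.6% of KP cells, at or below the T cell shares of 16.6% in KPF1F2 and 91.3% in KP. Of its UMIs in KPF1F2, at least 50% lay in 1 cell. The added features for the engineered alleles had 3 UMIs in KPF1F2 members, all UPRT_short, and 2 in KP members, all CRE-ERT2, and Foxa1 and Foxa2 had 0 in both. A count of 0 allows up to 3 counts, so the labels of the alleles could not be checked in these cells.

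Members also varied within a library. Among 1934 genes with a mean of at least 0.2 UMI per thinned cell in both libraries, the median ratio of variance to mean was 1.11 in KPF1F2 and 1.12 in KP. Of the 15 most variable genes in each library, 12 were in both: Chil3, Gm42418, Sftpc, Malat1, Cd74, Spp1, Lyz2, Apoe, Fth1, Ftl1, mt-Co3 and H2-Aa. Chil3 had a ratio of 91.3 in KPF1F2 and 78.5 in KP, and Spp1 had 84.6 in KPF1F2 and 35.3 in KP. Mmp12, Wfdc17 and the cathepsin Ctsl were among the 15 in KPF1F2 alone, and H2-Ab1, mt-Atp6 and mt-Co2 in KP alone. Ctsl had a ratio of 19.4 in KPF1F2 and 2.26 in KP.

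Across thinned members (573 cells in KPF1F2, 641 in KP, with 9 shallower KPF1F2 cells and 55 shallower KP cells left out), class II genes went together. The correlation of H2-Aa with Cd74 was 0.85 in KPF1F2 and 0.85 in KP, and with H2-Eb1 0.82 in KPF1F2 and 0.77 in KP, on log values of thinned UMIs. Chil3 went against C1qa (-0.54 in KPF1F2, -0.52 in KP) and against H2-Eb1 (-0.52 in KPF1F2, -0.43 in KP), and with Car4 (0.41 in KPF1F2, 0.39 in KP). The chemokine Cxcl2 went with Il1b (0.38 in KPF1F2, 0.36 in KP). Cells of a library share that library and the gate, so these are descriptions of the cells.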

How the data were processed

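The authors deposited filtered matrices of UMI counts, whole numbers per gene and barcode, from 10x Genomics 3′ chemistry version 3.1 per the labels' protocols. Per the file headers they come from Cell Ranger 6.0.0, and per the submitters' processing notes from build mm10. The sources used here do not give annotation, strand setting or cell calling. Of 28006 features, 27645 matched GENCODE release 21, which gave positions.

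Here UMIs were summed over members per library and given as CPM. Folds are log2 with 1 CPM added, for genes with a mean of 20 CPM. The 95% intervals, which cover counting error only, are Clopper-Pearson for shares, Poisson (exact) for CPM and conditional binomial (exact) for count ratios. Comparison cells were C1q-positive macrophages (8 or more UMIs of C1qa, C1qb and C1qc, fewer than 3 gate UMIs, not cycling), cycling alveolar macrophages, all other cells kept, and T cells (a Cd3e UMI, gate below 8). The other cells kept are all non-members, including gated cells that were cycling or held a UMI of Epcam, Cd3e or Cd79a. Thinning drew 3000 UMIs per cell. Doublets were not removed from the values reported: scrublet in scanpy 1.11.5 marked 0.114% of KPF1F2 and 0.105% of KP cells at its automatic threshold, too few to have worked, so the highest-scoring 131 KPF1F2 and 181 KP cells were left out as an alternative. Genes named were the 15 with the largest fold each way that were higher in members than in other cells, up to 4 and 2 members per list, the most variable genes and those leading against other cells; further genes were named after their values were seen, and some genes are not reported here. The members, the 37 lists and the tests were chosen with earlier results of these data known. The fold and interval script was tested on simulated data. Python 3.11.15, edgeR and DESeq2 (for scaling factors only) were used.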

Additional observations from a re-analysis of the deposited data

Results flagged for a closer look

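For 2 of the ranked genes the difference between KPF1F2 and KP ran in opposite directions in different cells of the same libraries. Rbp4 had a log2 fold of 3.90 in resting alveolar macrophages and -2.71 in all other cells kept. All other cells kept are a mixture of cell types, so that fold is not that of a single cell type. The mixture includes cells that were not cycling, with 0 to 1 gate UMIs and no UMI of Epcam, Cd3e or Cd79a. These had Rbp4 at 17.6 CPM in KPF1F2 and 14.8 CPM in KP. Among members, 50% of the Rbp4 UMIs lay in 5 of the 582 KPF1F2 cells and 4 of the 696 KP cells. Inhba had a log2 fold of 1.48 in resting alveolar macrophages and -1.55 in C1q-positive macrophages, with 50% of its UMIs among members in 21 of the 582 KPF1F2 cells and 9 of the 696 KP cells. With 1 library per group neither difference was tested. Outlying samples could not be looked for with 1 library per group.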

How the results depend on the processing

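No paired analysis was possible because each group is 1 library. Repeating the comparison in post-depletion libraries was not run, since the KPF1F2 one held 2 members and the KP one 0. The counts of genes at least 2-fold higher (116) and lower (40) became 75 and 23 with a 50 CPM minimum and 303 and 278 with none, and the lower count became 64 with thinned cells. The other alternatives gave 97 to 146 higher and 34 to 46 lower genes. The share of members, 16.6% in KPF1F2 and 18.3% in KP, became 14.966% in KPF1F2 and 15.9% in KP with 15 gate UMIs, and 19.8% in KPF1F2 and 20.4% in KP with 3000 UMIs per cell, and 20.2% in KP with 5 gate UMIs. Chosen after seeing the data, leaving out members with 8 C1q UMIs gave 13.5% in KPF1F2 and 17.0% in KP, and 60 gate UMIs gave 6.24% in KPF1F2 and 9.93% in KP; these settings shared 91 and 80 of the 116 higher genes and 29 and 30 of the 40 lower genes. The share of members was lower in KPF1F2 in each of these settings. Among 150 genes followed (ranked genes, gate genes and list examples), no difference past 2-fold changed direction in any alternative run. TMM scaling shifted the median of all genes to 0.05 and gave 127 higher and 36 lower genes. Igf1 had log2 folds of 4.59 with equal weight per cell, 5.13 without the cells with the highest doublet scores and 5.50 with 60 gate UMIs. Rbp4 had 3.68, 3.91 and 3.43 in the same settings. The cause of these shifts was not tested. The minimum of 20 CPM was a choice, and genes under it hold fewer UMIs in the member sums and so more counting error.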

Other observations

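Some features outside the ranking differed between the libraries in members and in all other populations alike; they were picked after their values were seen. The ribosomal protein gene Rpl29 had 307 CPM in KPF1F2 and 25.5 CPM in KP in members (log2 fold 3.54), and log2 folds of 3.40, 4.04 and 3.71 in cycling alveolar macrophages, C1q-positive macrophages and all other cells kept. AY036118, a transcript that overlaps ribosomal RNA, had 62.8 CPM in KPF1F2 and 612 CPM in KP in members (log2 fold -3.27), and log2 folds of -2.95, -2.94 and -3.26 in the same 3 populations.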
